A study of Mus musculus with 9 samples.

Results

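The 10 genes described here belong to the BCL2 family, which decides whether mitochondria release the signal for cell death. They were chosen by name as Bcl2, Bcl2l1, Mcl1, Bax, Bak1, Bcl2l11, Pmaip1, Bbc3, Bik and Bid, and all 10 were found among the 29995 genes of the expression table from which immunoglobulin (Ig) genes had been removed. Of these, 9 were expressed highly enough to be tested and Bik was not. The 9 RNA libraries were made from spleen cells of B6.Blimp1+/GFP mice, in which green fluorescent protein (GFP) reports the gene of the plasma cell factor Blimp1. All groups came from mice with that heterozygous reporter allele, 12 weeks old and given 50 µg NP-LPS (the hapten nitrophenyl on bacterial lipopolysaccharide) intraperitoneally 4 days earlier, so no library came from an unimmunized animal. Naive B cells (3 libraries) were sorted as IgD high, B220 positive and NP negative, NP-specific B cells (NP+ B cells below, 3 libraries) as NP-binding cells without IgD, GFP or CD138, and plasma cells (PCs, 3 libraries) as NP-binding cells without IgD that carried GFP and CD138. The gates also removed cells with CD4, CD8a, Ter-119 or F4-80. The study's design gives 3 mice as the biological replicates. By the paper's wording, the NP-binding cells of both kinds were sorted from 3 mice, so NP+ B cells and PCs share mice. Naive B cells may share them too, but the labels do not say which libraries came from the same mouse.

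Proteins of the BCL2 family meet at the outer mitochondrial membrane. The guardians BCL2, BCL-XL (gene Bcl2l1) and MCL1 hold the pore-forming effectors BAX and BAK in check. The BH3-only proteins BIM (Bcl2l11), NOXA (Pmaip1), PUMA (Bbc3), BIK and BID bind the guardians, and some of them also activate the effectors directly. Once the effectors open the membrane, cytochrome c escapes and the caspases are switched on. In the B lineage, naive cells are known to lean on BCL2 downstream of the cytokine BAFF, while plasma cells are known to need MCL1.

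The cell type labels were checked on marker genes. PCs had lower levels of all 7 B cell markers than naive B cells by the test used below, and higher levels of all 5 plasma cell markers tested (Irf4 under 2-fold, at a log2 change of 0.91, with Ig genes kept). By the same test NP+ B cells had 2 of the 7 B cell markers lower than naive B cells, Fcer2a (log2 change -2.01) and Cr2 (-1.09), and 0 higher. The 7 summed to 4090 to 4461 TPM in NP+ B cells and 6138 to 6582 TPM in naive B cells. Plasma cell markers summed to 135.5 to 161.6 TPM (a level corrected for transcript length) in naive B cells, 448.9 to 619.8 TPM in NP+ B cells and 15847 to 18103 TPM in PCs. In NP+ B cells Igj, the joining chain gene, stood at 465.1, 371.8 and 273.2 TPM against at most 4.96 TPM in naive B cells, and Tnfrsf17, the BAFF family receptor of plasma cells, was higher than in naive B cells (log2 change 3.68, limma adjusted p = 0.00118), while Sdc1 (-2.52) and Irf4 (-1.20, and -0.92 without NP+ B cells replicate 1) were lower. The part of these transcripts in the results for NP+ B cells was not tested. Of the 7 T cell markers, Cd2, which mouse B cells are known to express too, was at 319.9 to 394.2 TPM in the 6 naive and NP+ libraries and at most 6.15 TPM in PCs, and the other 6 summed to between 1.19 and 7.98 TPM in every library. Myeloid markers summed to 3.25 to 5.86 TPM in naive B cells, 11.7 to 64.5 TPM in NP+ B cells and 3.17 to 25.8 TPM in PCs, with the highest sums in NP+ B cells replicate 2 and PCs replicate 3, and 5 erythroid markers summed to at most 22.4 TPM (sums are from the full table). Of the 4 myeloid markers tested, 1 was higher in NP+ than in naive B cells, Itgam (log2 change 2.42). Without Ig genes it was at 12.3 to 16.0 TPM across the NP+ libraries and 2.09 to 2.73 TPM in naive B cells. Without both NP+ B cells replicate 2 and PCs replicate 3 the numbers of family genes called below were 1, 4 and 6, the same as with them. Depth without Ig genes was 28490278 to 31719387 estimated reads in naive B cells, 34918379 to 38602257 in NP+ B cells and 20189947 to 22137412 in PCs. Unless stated otherwise, levels below are TPM in the table without Ig genes, and errors are SD over 3 libraries. In bulk RNA, fewer cells that express a gene and less of its RNA per cell cannot be told apart.

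The 4 genes whose transcripts differed over 2-fold between PCs and naive B cells were Bcl2l11, Bcl2l1, Bcl2 and Bid. Their promoters are shown first, because these are the sequences beside which the largest changes were measured. Each sequence holds the 250 bases before the annotated start in RefSeq (GRCm38.p6), read in the direction of transcription. The windows are chr2:128125788-128126037 on the plus strand for Bcl2l11, chr1:106714291-106714540 on the minus strand for Bcl2, chr2:152831729-152831978 on the minus strand for Bcl2l1 and chr6:120916825-120917074 on the minus strand for Bid. Where several starts were listed (2 for Bcl2l11 and 3 for Bcl2l1), the start at the outer edge of the gene was taken. Capitals mark every match, on either strand, to 4 short motifs: GAAAG (read as CTTTC on the other strand), the core of Blimp1 sites; ACGT, a core shared by many bZIP factors; GTAAACA (or TGTTTAC), a site of FOXO factors; and CAGGTG (or CACCTG), an E-box.
Bcl2l11: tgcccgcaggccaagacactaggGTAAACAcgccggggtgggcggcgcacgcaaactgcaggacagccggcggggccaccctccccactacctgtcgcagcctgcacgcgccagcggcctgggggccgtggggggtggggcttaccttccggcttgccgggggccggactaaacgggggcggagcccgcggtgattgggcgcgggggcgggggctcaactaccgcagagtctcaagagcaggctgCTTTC
Bcl2: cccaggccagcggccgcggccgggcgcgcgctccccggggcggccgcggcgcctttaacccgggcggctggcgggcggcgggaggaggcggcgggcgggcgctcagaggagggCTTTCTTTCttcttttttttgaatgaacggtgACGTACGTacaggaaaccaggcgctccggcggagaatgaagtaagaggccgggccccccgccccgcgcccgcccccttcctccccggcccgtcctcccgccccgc
Bcl2l1: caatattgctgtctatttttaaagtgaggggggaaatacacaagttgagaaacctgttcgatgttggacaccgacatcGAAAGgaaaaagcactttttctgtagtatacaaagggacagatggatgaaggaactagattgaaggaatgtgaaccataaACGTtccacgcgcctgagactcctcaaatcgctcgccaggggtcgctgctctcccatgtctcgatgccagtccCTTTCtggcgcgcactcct
Bid: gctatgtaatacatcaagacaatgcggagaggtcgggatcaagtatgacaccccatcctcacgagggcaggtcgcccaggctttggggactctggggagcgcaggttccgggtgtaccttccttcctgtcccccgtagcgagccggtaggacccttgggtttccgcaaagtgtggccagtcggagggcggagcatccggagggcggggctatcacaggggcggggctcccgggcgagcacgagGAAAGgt
Bcl2l11 held GTAAACA with its first base 227 bases upstream of the start, and CTTTC in the last 5 bases. Bcl2 held CTTTC at 137 and 133 bases upstream and ACGT at 105 and 101 bases upstream. Bcl2l1 held GAAAG at 172, ACGT at 92 and CTTTC at 19 bases upstream, and Bid held GAAAG at 7 bases upstream. The RefSeq start of Bid lies 29 bases inside the gene as placed by GENCODE, so this match falls within that gene. CAGGTG was in none of the 4 windows. Among 32851 promoter windows of the same length, 51.52% held GAAAG, 26.88% held ACGT, 3.17% held GTAAACA and 17.22% held CAGGTG, so a GAAAG match is common. The sequence was rich in G and C in Bcl2 (74.8%), Bcl2l11 (72.0%) and Bid (63.6%) and less so in Bcl2l1 (47.6%). These matches describe letters in the sequence and not bound sites.

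**Figure D1:**
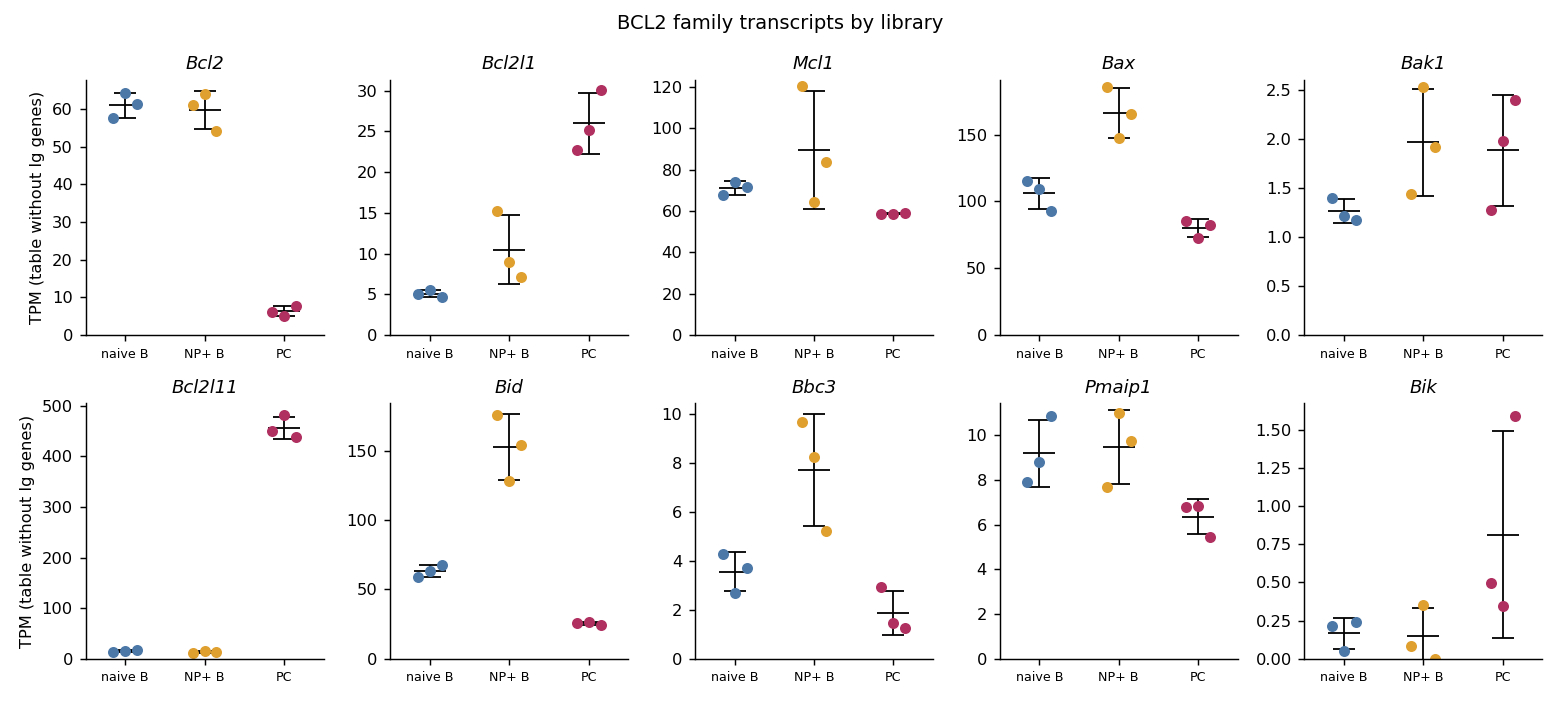
Level of each of the 10 BCL2 family genes in every library (points, TPM in the table without Ig genes, linear axes from 0 that differ between genes), with the mean (long line) and SD (short lines) of 3 libraries for naive B cells, NP+ B cells and PCs. Bcl2l11 lies between 437.3 and 480.9 TPM in PCs and at or below 17.2 TPM in the other 6 libraries, while Bcl2 lies at or below 7.64 TPM in PCs and at or above 54.2 TPM elsewhere.

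Differences between groups were tested with limma across the 12892 genes that reached a TPM of 1 in 3 or more libraries. A gene was called higher or lower with a Benjamini-Hochberg adjusted p under 0.05 and a fold change over 2, and log2 changes refer to log2(TPM + 0.5), so changes of weakly expressed genes are understated. NP+ B cells against naive B cells sets NP-binding cells without IgD or GFP beside IgD high cells that do not bind NP. These sorted cells may differ in B cell subset as well as in antigen activation, and these cannot be told apart here. The comparisons of PCs with either group ask what accompanies differentiation. The 3 comparisons share libraries, so each is given by its own values. Between NP+ and naive B cells, 1 of the 9 genes tested was called (Bid, higher), where 18.5% of all genes were called (8.13% higher and 10.4% lower). Between PCs and naive B cells, 4 of 9 were called (Bcl2l11 and Bcl2l1 higher, Bcl2 and Bid lower), where 37.8% of all genes were called (11.4% higher and 26.3% lower). Between PCs and NP+ B cells, 6 of 9 were called (Bcl2l11 and Bcl2l1 higher, Bcl2, Bid, Bax and Bbc3 lower), where 32.2% of all genes were called (9.93% higher and 22.3% lower). The share called was thus below the background in the first comparison, near it in the second and above it in the third, and with 9 genes these shares were not tested.

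**Figure D2:**
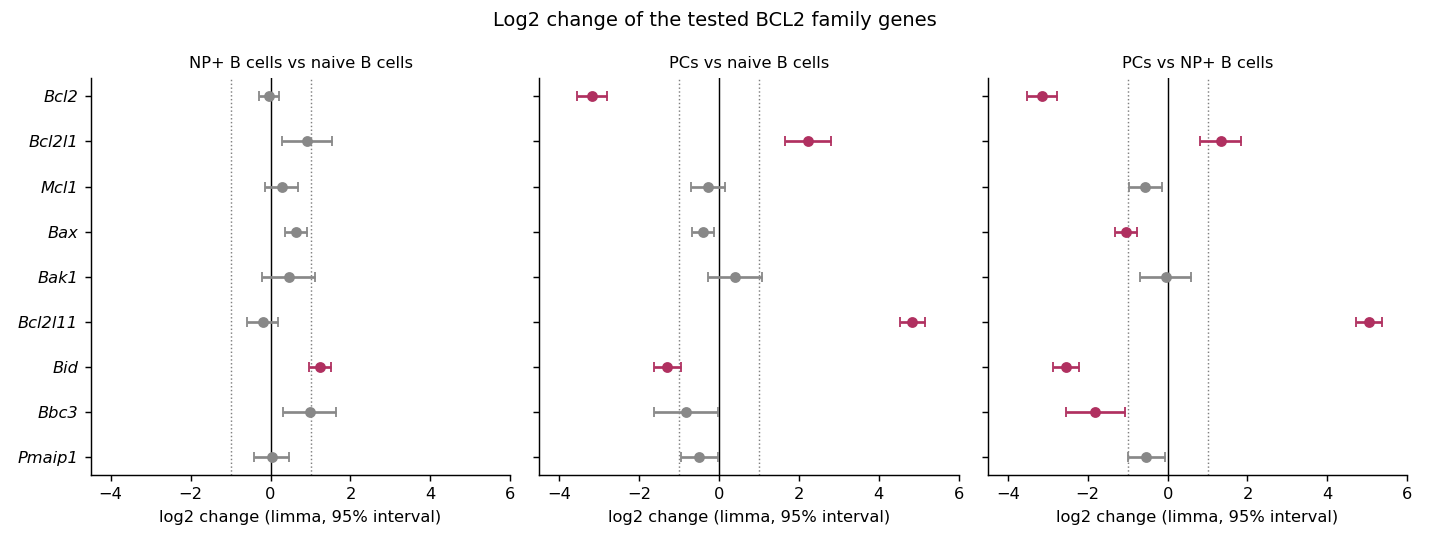
Log2 change (points) with its 95% interval (bars) from limma for the 9 BCL2 family genes tested in the 3 comparisons, with called genes in red, the others in grey, and dotted lines at a 2-fold change. Bcl2l11 and Bcl2 lie farthest from 0 in both comparisons with PCs, on opposite sides, and only Bid is called between NP+ and naive B cells.

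Among the guardians, Bcl2 fell in PCs and Bcl2l1 rose there, while Mcl1 was called in no comparison unless Ig genes were kept in the table. Bcl2, the guardian named for B cell lymphoma (chr1:106538178-106714274, mm10), was at 57.5, 64.2 and 61.2 TPM in naive B cells, 61.0, 64.0 and 54.2 TPM in NP+ B cells and 6.26, 5.18 and 7.64 TPM in PCs. The naive and NP+ libraries overlapped, and every PC library lay far below both. Bcl2 was 9.08-fold lower in PCs than in naive cells (log2 change -3.18, SE 0.17, limma adjusted p = 6.27e-08) and 8.84-fold lower than in NP+ B cells (-3.14, SE 0.17, limma adjusted p = 9.18e-08). Among the 12892 genes tested it ranked 341 by size of fall in PCs against naive B cells. Between NP+ and naive B cells the log2 change of Bcl2 was -0.04, with a 95% interval of -0.30 to 0.22 (limma adjusted p = 0.807).

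Bcl2l1, which encodes BCL-XL (chr2:152780668-152831728), was the least abundant of the 3 guardians in naive B cells, at 5.05, 5.50 and 4.66 TPM. It stood at 15.3, 9.01 and 7.18 TPM in NP+ B cells and at 22.7, 25.1 and 30.1 TPM in PCs. The 3 groups did not overlap, and the NP+ libraries were the most scattered. Bcl2l1 was 4.71-fold higher in PCs than in naive cells (log2 change 2.24, SE 0.26, limma adjusted p = 2.6e-05) and 2.51-fold higher than in NP+ B cells (1.33, SE 0.23, limma adjusted p = 0.000543), but the latter call was lost with Ig genes kept (0.18). Its change from naive to NP+ B cells was 1.87-fold (log2 change 0.91, SE 0.29, limma adjusted p = 0.0261), just short of the 2-fold limit, and without NP+ B cells replicate 1 the log2 change was 0.61 (limma adjusted p = 0.0631). The same change was called without NP+ B cells replicate 3 (1.13, limma adjusted p = 0.0110). It was also called with median-of-ratios scaling (1.03), quantile normalization (1.01), the authors' log2 values (1.002) and estimated counts (1.01).

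Mcl1, whose short-lived protein guards plasma cells (chr3:95658788-95663176), was at 67.7, 74.1 and 71.8 TPM in naive B cells and at 120.5, 64.5 and 83.7 TPM in NP+ B cells. In PCs it was at 58.7, 58.4 and 59.0 TPM, the narrowest spread of the 10 genes. All 3 PC libraries lay below the 6 others, by little. The log2 change was -0.28 against naive B cells (95% interval -0.71 to 0.15, limma adjusted p = 0.229) and -0.56 against NP+ B cells (-0.97 to -0.14, limma adjusted p = 0.0285), under 2-fold in both, but -1.48 and -1.74, and called, with Ig genes kept. Between NP+ and naive B cells it was 0.27 (-0.14 to 0.68, limma adjusted p = 0.254), with groups that overlapped.

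The make-up of the guardian transcripts differed between PCs and both B cell groups. These shares compare genes within a library, so no scaling between libraries enters them. Of the summed TPM of the 3 guardians, Bcl2 held 44.4% ± 0.267 in naive B cells, 38.3% ± 7.81 in NP+ B cells and 6.96% ± 1.04 in PCs. Bcl2l1 held 3.70% ± 0.271, 6.42% ± 1.41 and 28.4% ± 2.58 in the same order, and Mcl1 held 51.9% ± 0.332, 55.3% ± 7.47 and 64.6% ± 3.15. By TPM, Mcl1 was thus the most abundant of the 3 in naive B cells and PCs, ahead of Bcl2 in the former and of Bcl2l1 in the latter. In estimated reads, which are not corrected for transcript length, Bcl2 came first in naive B cells (53.5%, with Mcl1 at 44.6% and Bcl2l1 at 1.95%), and PCs had 70.3% Mcl1, 19.1% Bcl2l1 and 10.6% Bcl2. In NP+ B cells replicate 2, Mcl1 and Bcl2 were nearly level, with 1.01 Mcl1 transcripts per Bcl2 transcript. The mean ratio was 1.17 ± 0.0130 for naive B cells and 9.46 ± 1.77 for PCs. The summed level of the 3 guardians was 137.2 ± 6.76 TPM in naive B cells, 159.8 ± 32.3 TPM in NP+ B cells and 91.0 ± 4.94 TPM in PCs. Unlike the shares, this sum depends on the scaling between libraries. With Ig genes kept, Mcl1 alone averaged 66.6 TPM in naive B cells and 17.2 TPM in PCs.

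Of the effectors, Bax was called in 1 comparison and Bak1 in none. Bax, which oligomerizes into the membrane pore (chr7:45461697-45466898), was at 115.5, 109.6 and 93.0 TPM in naive B cells, 185.4, 147.7 and 165.8 TPM in NP+ B cells and 85.6, 72.6 and 82.7 TPM in PCs. NP+ B cells held the highest values and PCs the lowest, with no overlap. Bax fell 2.06-fold from NP+ B cells to PCs (log2 change -1.04, SE 0.12, limma adjusted p = 3.86e-05), at the edge of the 2-fold limit, and the call was lost without NP+ B cells replicate 1 (-0.96) or PCs replicate 2 (-0.97), on the authors' log2 values (-0.98) and on estimated counts (-0.98). The change of Bax was 0.64 in NP+ against naive B cells (SE 0.12, limma adjusted p = 0.00197) and -0.40 in PCs against naive B cells (SE 0.13, limma adjusted p = 0.0191), both under 2-fold.

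Bak1, the partner effector (chr17:27019810-27029009), was scarce throughout. It was at 1.41, 1.22 and 1.18 TPM in naive B cells, 1.45, 2.54 and 1.92 TPM in NP+ B cells and 1.28, 1.98 and 2.41 TPM in PCs. The values spread as widely within NP+ B cells and PCs as between groups, apart from the low and tight naive libraries. No difference passed, and the 95% intervals of the log2 change were -0.21 to 1.12 for NP+ against naive B cells, -0.27 to 1.07 for PCs against naive B cells and -0.69 to 0.58 for PCs against NP+ B cells.

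Among the BH3-only genes, Bcl2l11 rose in PCs, Bid was called in each comparison, Bbc3 fell from NP+ B cells to PCs, and Pmaip1 was called in none unless Ig genes were kept. Bcl2l11, which encodes the death activator BIM (chr2:128126038-128162547), was at 14.2, 14.8 and 17.2 TPM in naive B cells and at 10.9, 16.3 and 13.5 TPM in NP+ B cells, groups that overlapped. In PCs it reached 450.0, 480.9 and 437.3 TPM. Every PC library lay far above the other 6. Bcl2l11 rose 28.6-fold in PCs against naive B cells (log2 change 4.84, SE 0.14, limma adjusted p = 7.37e-10) and 32.8-fold against NP+ B cells (5.04, SE 0.14, limma adjusted p = 8.78e-10). Among the 12892 genes tested it ranked 61 by size of rise in the first comparison and 31 in the second. By mean level it ranked 6201 of 29995 genes in naive B cells and 379 in PCs. Between NP+ and naive B cells its log2 change was -0.20 (95% interval -0.59 to 0.20, limma adjusted p = 0.395). With Ig genes kept in the table, Bcl2l11 stood at 134.2, 133.7 and 131.3 TPM in PCs against 13.3, 13.9 and 16.1 TPM in naive B cells.

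Bid, whose protein links death receptors to the mitochondrial route once caspase-8 cleaves it (chr6:120891930-120916853), was the 1 gene of the 10 called in all 3 comparisons, although its call in PCs against naive B cells depended on the scaling. It was at 59.2, 63.2 and 67.6 TPM in naive B cells, 175.8, 128.0 and 153.8 TPM in NP+ B cells and 25.6, 26.4 and 24.7 TPM in PCs. The groups were far apart, with NP+ B cells highest and PCs lowest. Bid rose 2.37-fold in NP+ against naive B cells (log2 change 1.24, SE 0.13, limma adjusted p = 3.57e-05). It fell 5.82-fold from NP+ B cells to PCs (-2.54, SE 0.14, limma adjusted p = 1.31e-07) and was 2.46-fold lower in PCs than in naive cells (-1.30, SE 0.15, limma adjusted p = 2.98e-05).

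Bbc3, which encodes PUMA, a target of p53 (chr7:16308393-16318205), was low. It was at 4.29, 2.69 and 3.70 TPM in naive B cells, 9.65, 8.24 and 5.21 TPM in NP+ B cells and 2.92, 1.45 and 1.27 TPM in PCs. NP+ B cells lay above both other groups, which overlapped each other. Bbc3 fell 3.50-fold from NP+ B cells to PCs (log2 change -1.81, SE 0.34, limma adjusted p = 0.00091). From naive to NP+ B cells the change was 1.98-fold (0.99, SE 0.30, limma adjusted p = 0.0226). With the replicate number as a block it was 1.00 (limma adjusted p = 0.0108) and called. It was also called with median-of-ratios scaling (1.10), quantile normalization (1.07), the authors' log2 values (1.11) and estimated counts (1.12). The call was also gained without naive B cells replicate 1 (1.12) or NP+ B cells replicate 3 (1.23). In PCs against naive B cells the change was -0.82 (SE 0.36, limma adjusted p = 0.0711). Without PCs replicate 1 the last change was -1.12 (limma adjusted p = 0.0384) and would have been called.

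Pmaip1, which encodes the MCL1-binding protein NOXA, was at 7.91, 8.80 and 10.9 TPM in naive B cells, 7.69, 10.98 and 9.76 TPM in NP+ B cells and 6.78, 6.81 and 5.45 TPM in PCs. The PC libraries lay below the others, but the differences were small. The log2 change was -0.50 in PCs against naive B cells (95% interval -0.96 to -0.04, limma adjusted p = 0.0590) and -0.53 against NP+ B cells (-0.99 to -0.07, limma adjusted p = 0.0512), and with Ig genes kept it was -1.49 and -1.51, both called. Between NP+ and naive B cells it was 0.03 (-0.41 to 0.47, limma adjusted p = 0.910).

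Bik, a BH3-only gene first found as a killer that binds BCL2 (chr15:83526862-83544634), was close to the floor of detection, set at 3 reads. It was at 0.212, 0.0506 and 0.239 TPM in naive B cells, 0.0866, 0.353 and 0 TPM in NP+ B cells and 0.498, 0.347 and 1.59 TPM in PCs. These levels rest on 0 to 7.99 estimated reads in the naive and NP+ libraries and on 6.86, 4.90 and 21.7 in PCs. PCs replicate 3 was the only library above 1 TPM, so Bik was left out of the test. In a fit without the filter on low levels, limma gave an adjusted p of 0.122 for PCs against naive B cells and 0.0907 against NP+ B cells.

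Summed over the 5 BH3-only genes, the level was 91.7 ± 7.14 TPM in naive B cells, 183.5 ± 20.1 TPM in NP+ B cells and 490.7 ± 23.2 TPM in PCs. With Ig genes kept, Bcl2l11 and Bid averaged 12.2 and 136.4 TPM in NP+ B cells and 133.1 and 7.46 TPM in PCs. The rise of the sum from NP+ B cells to PCs therefore depends on the scaling. The gene that supplied most of the sum was not the same in each group. Bid held 69.1% ± 1.35 of the sum in naive B cells and 82.9% ± 4.21 in NP+ B cells, but 5.21% ± 0.0857 in PCs. Bcl2l11 held 16.8% ± 0.426, 7.57% ± 2.30 and 92.9% ± 0.298. Per guardian transcript of Bcl2, Bcl2l1 and Mcl1 there were 0.669 ± 0.0511 BH3-only transcripts in naive B cells, 1.16 ± 0.113 in NP+ B cells and 5.41 ± 0.490 in PCs. With the 4 Bcl2a1 genes described below counted as guardians, the ratio was 0.282 ± 0.0235, 0.343 ± 0.0276 and 4.199 ± 0.677. Bcl2l11 transcripts per Bcl2 transcript went from 0.253 ± 0.0257 in naive B cells and 0.228 ± 0.0423 in NP+ B cells to 74.0 ± 17.9 in PCs. These ratios describe transcripts and not proteins, and they were not tested.

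**Figure D3:**
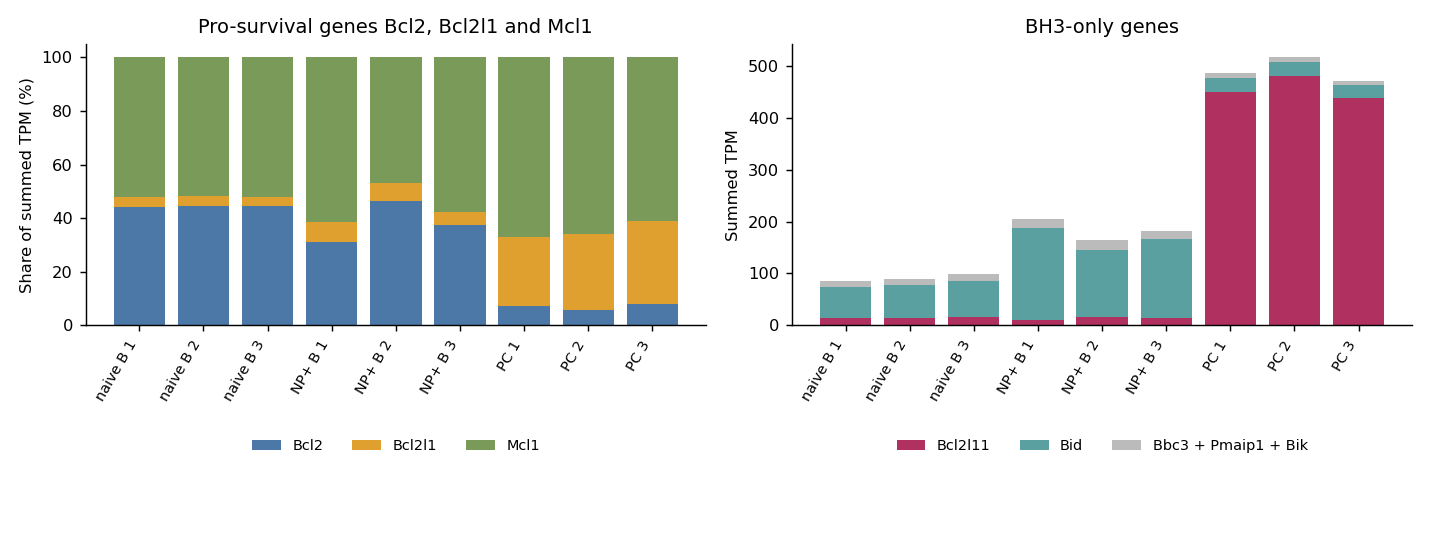
Left, share (%) of the summed TPM of Bcl2, Bcl2l1 and Mcl1 held by each gene in each of the 9 libraries. Right, summed TPM of the BH3-only genes, stacked as Bcl2l11, Bid and the 3 others: Bid makes most of the bar in naive and NP+ B cells, and Bcl2l11 holds a mean of 92.9% in PCs.

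How far PCs differed depended on how the libraries were scaled. The median log2 change of all genes tested was -0.16 in NP+ against naive B cells, -0.47 in PCs against naive B cells and -0.30 in PCs against NP+ B cells. Median-of-ratios scaling moved these medians by 0.11, 0.49 and 0.38, and keeping the Ig genes moved the 2 comparisons with PCs by -0.93 and -0.97. The split of called genes in PCs against naive B cells was 1473 higher and 3397 lower, and it became 2349 and 1814 with median-of-ratios scaling, 2063 and 2047 with quantile normalization and 551 and 7943 with Ig genes kept. Against NP+ B cells the split of 1280 and 2870 became 2023 and 1788, 1795 and 1843, and 420 and 7355, and the split of 1048 and 1340 in NP+ against naive B cells became 1258 and 1022, 1157 and 976, and 1068 and 1426.

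Bcl2l11 and Bcl2 kept their direction and their call in PCs under each of these scalings. Against naive B cells the change of Bcl2l11 was 5.33 with median-of-ratios scaling, 4.90 with quantile normalization and 3.62 with Ig genes kept, and that of Bcl2 was -2.69, -2.79 and -4.17. Bcl2l1 rose by 2.73, 2.75 and 1.07 against naive B cells, but against NP+ B cells it was 0.18 with Ig genes kept (limma adjusted p = 0.539), so that call depends on the scaling. Bid in PCs against naive B cells was -0.80 with median-of-ratios scaling and -0.97 with quantile normalization, both under 2-fold, and -2.45 with Ig genes kept. Bax in PCs against NP+ B cells was -0.66, -0.75 and -2.23. Mcl1 in PCs against naive B cells was 0.21, -0.05 and -1.48, and Bax was 0.09, -0.29 and -1.60, so neither has a direction in that comparison that holds across scalings. Pmaip1 was -0.01, 0.07 and -1.49 and Bak1 was 0.89, 0.92 and -0.24 there.

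**Figure D4:**
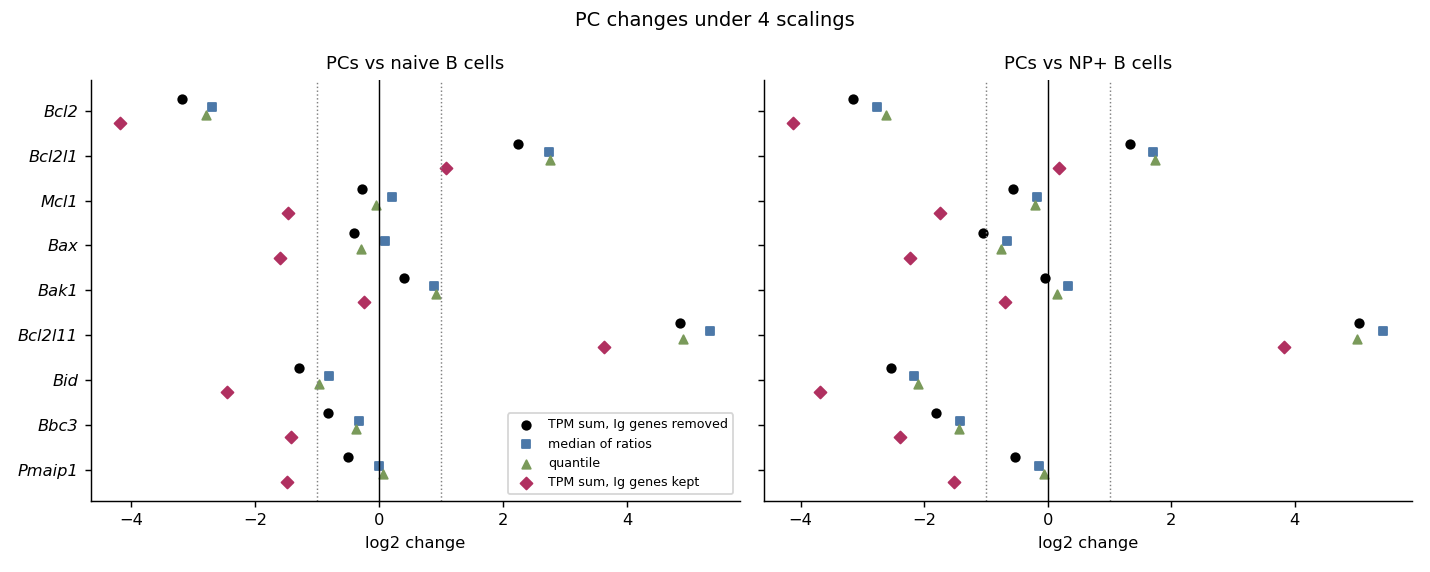
Log2 change of the 9 BCL2 family genes tested in PCs against naive B cells (left) and against NP+ B cells (right) under 4 ways of scaling the libraries, with dotted lines at a 2-fold change. Bcl2l11 stays between 3.62 and 5.33 and Bcl2 between -4.17 and -2.69 against naive B cells, whereas Mcl1, Bax, Bak1 and Pmaip1 lie on both sides of 0.

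Other genes of the family and of the pathway were taken from lists of 52 genes in all, of which 45 were tested. In NP+ against naive B cells 5 were called higher and 4 lower, and the median log2 change was -0.07 beside -0.16 for all genes. In PCs against naive B cells 3 were higher and 13 lower (median -0.44, beside -0.47), and against NP+ B cells 3 were higher and 14 lower (median -0.34, beside -0.30). The medians were thus close to those of all genes, and 9, 16 and 17 of 45 were called, beside 18.5%, 37.8% and 32.2% of all genes. In both comparisons with NP+ B cells these counts include Bcl2l14 and Bcl2l15 (2 of the 5 higher and 2 of the 14 lower), which entered the test only through those cells. The counts of each list below stand beside the same background. At most 3 genes are named with their changes from each list, and Tnfrsf10b was added after its values were seen.

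Of 6 further guardians, 3 were tested. Bcl2a1b and Bcl2a1d, which encode near-identical copies of the NF-kB-induced guardian A1, were called lower in PCs in both comparisons, and Bcl2a1d was called higher in NP+ B cells. Bcl2a1b was at 126.1, 136.7 and 124.4 TPM in naive B cells, 223.0, 244.1 and 223.7 TPM in NP+ B cells and 15.3, 14.4 and 20.4 TPM in PCs. Bcl2a1d was at 54.0, 60.5 and 60.6 TPM, then 161.2, 141.5 and 127.0 TPM, and then 6.82, 4.60 and 18.3 TPM. Both were highest in NP+ B cells and lowest in PCs, without overlap. Bcl2a1b fell by 3.76 on the log2 scale from NP+ B cells to PCs (SE 0.14, limma adjusted p = 4.36e-09) and Bcl2a1d by 4.01 (SE 0.32, limma adjusted p = 1.58e-06). The rise of Bcl2a1d in NP+ B cells was 1.27 (SE 0.22, limma adjusted p = 0.00119, but 0.0589 on the authors' log2 values and 0.0531 on log2(TPM + 0.1), both without weights), and that of Bcl2a1b was 0.82 and under 2-fold. How reads were split between such copies is uncertain, so the sum over Bcl2a1a, Bcl2a1b, Bcl2a1c and Bcl2a1d, of which Bcl2a1a and Bcl2a1c were at most 1.83 TPM in any library, is safer. It was 188.4 ± 8.99 TPM in naive B cells, 374.9 ± 19.2 TPM in NP+ B cells and 27.4 ± 10.5 TPM in PCs, which places it above Bcl2 and Mcl1 in both B cell groups. The PC libraries gave 24.1, 19.0 and 39.2 TPM for this sum, the last from replicate 3, the PC library with the most myeloid transcripts.

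Of 6 further death genes, 4 were tested, and in NP+ against naive B cells 1 was called higher and 2 lower, beside 8.13% and 10.4% of all genes. Bad, a BH3-only gene controlled by growth factor signals, was at 25.2, 25.7 and 25.3 TPM in naive B cells and at 72.3, 55.0 and 48.3 TPM in NP+ B cells (log2 change 1.16, SE 0.16, limma adjusted p = 0.000289), and 0.997 without NP+ B cells replicate 1, just under 2-fold. Bmf, a BH3-only gene tied to the cytoskeleton, went the other way, from 8.33, 9.31 and 8.82 TPM to 3.62, 3.52 and 3.41 TPM (-1.22, SE 0.21, limma adjusted p = 0.0011). Bnip3, a mitophagy and hypoxia gene, fell from 35.0, 23.1 and 31.4 TPM to 9.50, 5.05 and 11.7 TPM (-1.78, SE 0.45, limma adjusted p = 0.00937, and 0.0568 on the authors' log2 values). In PCs, Bnip3 was at 5.38, 4.16 and 21.6 TPM, with replicate 3, the PC library with the most myeloid transcripts, far above the other two. It was the only one of the 4 called in PCs against naive B cells (-1.83, SE 0.45, limma adjusted p = 0.0049, and -2.52 without PCs replicate 3), and against NP+ B cells none of the 4 was called. Of 4 family genes of other or debated role, Bcl2l12 was lower in PCs than in NP+ B cells (log2 change -2.04). Bcl2l14 was at 6.61, 2.02 and 4.89 TPM in NP+ B cells and at most 1.41 TPM in the other 6 libraries, and Bcl2l15 was at 1.54, 2.13 and 2.84 TPM in NP+ B cells and at most 0.793 TPM elsewhere. Neither gene would have passed the filter on low levels without the NP+ libraries, where it was high, so their calls in the 2 comparisons with NP+ B cells are not read as results.

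Among 9 genes of the apoptosome and the caspases, none was called between NP+ and naive B cells. Against naive B cells, PCs had 1 of them higher and 3 lower, and against NP+ B cells 3 lower, so 4 and 3 of 9 were called beside 37.8% and 32.2% of all genes. Cycs, which encodes cytochrome c and also serves respiration, was at 64.4, 57.9 and 62.4 TPM in naive B cells, 130.6, 101.2 and 118.2 TPM in NP+ B cells and 179.6, 166.1 and 190.9 TPM in PCs. Its log2 change in PCs against naive B cells was 1.52 (SE 0.12, limma adjusted p = 1.04e-06), but 0.31 and not called with Ig genes kept. Casp9, the initiator caspase of the apoptosome, fell in PCs to 4.93, 6.003 and 3.25 TPM from 20.1, 19.0 and 22.01 TPM in naive B cells (-2.04, SE 0.21, limma adjusted p = 1.16e-05). Casp6, an executioner caspase, was at 40.2, 31.5 and 36.9 TPM in naive B cells, 32.6, 24.7 and 32.2 TPM in NP+ B cells and 15.8, 11.5 and 13.9 TPM in PCs, below every library of the other groups. Its log2 change was -1.38 against naive B cells (SE 0.18, limma adjusted p = 5.94e-05) and -1.09 against NP+ B cells (SE 0.18, limma adjusted p = 0.000432). Both were under 2-fold with median-of-ratios scaling (-0.88 and -0.71) and quantile normalization (-0.91 and -0.63), and the second also without PCs replicate 2 (-0.97).

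Of 6 inhibitors of caspases, none was called higher in any comparison. Lower were 1 in NP+ against naive B cells, 2 in PCs against naive B cells and 2 in PCs against NP+ B cells. In the same order, 8.13%, 11.4% and 9.93% of all genes were called higher and 10.4%, 26.3% and 22.3% lower. Birc3, which encodes the ubiquitin ligase cIAP2, was at 231.4, 258.8 and 258.5 TPM in naive B cells, 95.8, 104.6 and 83.1 TPM in NP+ B cells and 37.9, 46.1 and 36.9 TPM in PCs, stepping down without overlap. Its log2 change was -1.41 in NP+ against naive B cells (SE 0.11, limma adjusted p = 8.26e-06), -2.63 in PCs against naive B cells (SE 0.13, limma adjusted p = 2.59e-08) and -1.22 in PCs against NP+ B cells (SE 0.13, limma adjusted p = 2.01e-05). The last step was under 2-fold with median-of-ratios scaling (-0.84) and quantile normalization (-0.83). Naip5, better known as a sensor of bacterial flagellin, was also called lower in both comparisons with PCs, at 0.319 to 1.33 TPM there, and the call against NP+ B cells was lost without NP+ B cells replicate 2 or 3 or PCs replicate 2 or 3 (limma adjusted p 0.0641 to 0.105). It was also lost with median-of-ratios scaling, without the filter, with only the 2 groups compared and on log2(TPM + 1) without weights, and the call against naive B cells was lost with median-of-ratios scaling (-1.01, limma adjusted p = 0.0767) and without both NP+ B cells replicate 2 and PCs replicate 3 (limma adjusted p = 0.0544).

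In the death receptor arm, 8 genes were listed and 7 tested. In NP+ against naive B cells 1 was called higher (Fas) and 1 lower (Tnfrsf10b), in PCs against naive B cells 2 lower, and in PCs against NP+ B cells 1 higher and 2 lower. Tnfrsf10b, the mouse receptor of the death ligand TRAIL, was at 14.7, 10.6 and 12.6 TPM in naive B cells, 4.96, 7.39 and 4.88 TPM in NP+ B cells and 8.85, 4.19 and 8.61 TPM in PCs. Its log2 change in NP+ against naive B cells was -1.09 (SE 0.28, limma adjusted p = 0.0101), and it was just under 2-fold with median-of-ratios scaling (-0.99), with quantile normalization (-0.97) and without naive B cells replicate 1 (-0.99) or NP+ B cells replicate 3 (-0.998). Fas, the receptor that starts the route on which Bid is cleaved, was at 9.41, 9.89 and 8.44 TPM in naive B cells, 52.1, 36.7 and 39.9 TPM in NP+ B cells and 3.69, 2.95 and 4.38 TPM in PCs. Its order of groups was that of Bid, highest in NP+ B cells and lowest in PCs. Fas rose by 2.13 on the log2 scale in NP+ against naive B cells (SE 0.19, limma adjusted p = 1.35e-05) and fell by 3.37 from there to PCs (SE 0.22, limma adjusted p = 4.09e-07). PCs were also below naive B cells (-1.24, SE 0.25, limma adjusted p = 0.00144), but -0.74 with median-of-ratios scaling and -0.69 with quantile normalization. Cflar, which encodes the caspase-8 blocker cFLIP, was at 48.1, 61.7 and 54.7 TPM in NP+ B cells and at 164.4, 127.0 and 142.0 TPM in PCs (1.39, SE 0.13, limma adjusted p = 5.29e-06), but 0.19 with Ig genes kept. Tradd, an adaptor of tumor necrosis factor receptors, was lower in PCs by 1.12 and 1.05 on the log2 scale, and under 2-fold in both with median-of-ratios scaling (-0.62 and -0.67) and quantile normalization (-0.79 and -0.60), and in the second also without NP+ B cells replicate 1 (-0.93) or PCs replicate 3 (-0.99).

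**Figure D5:**
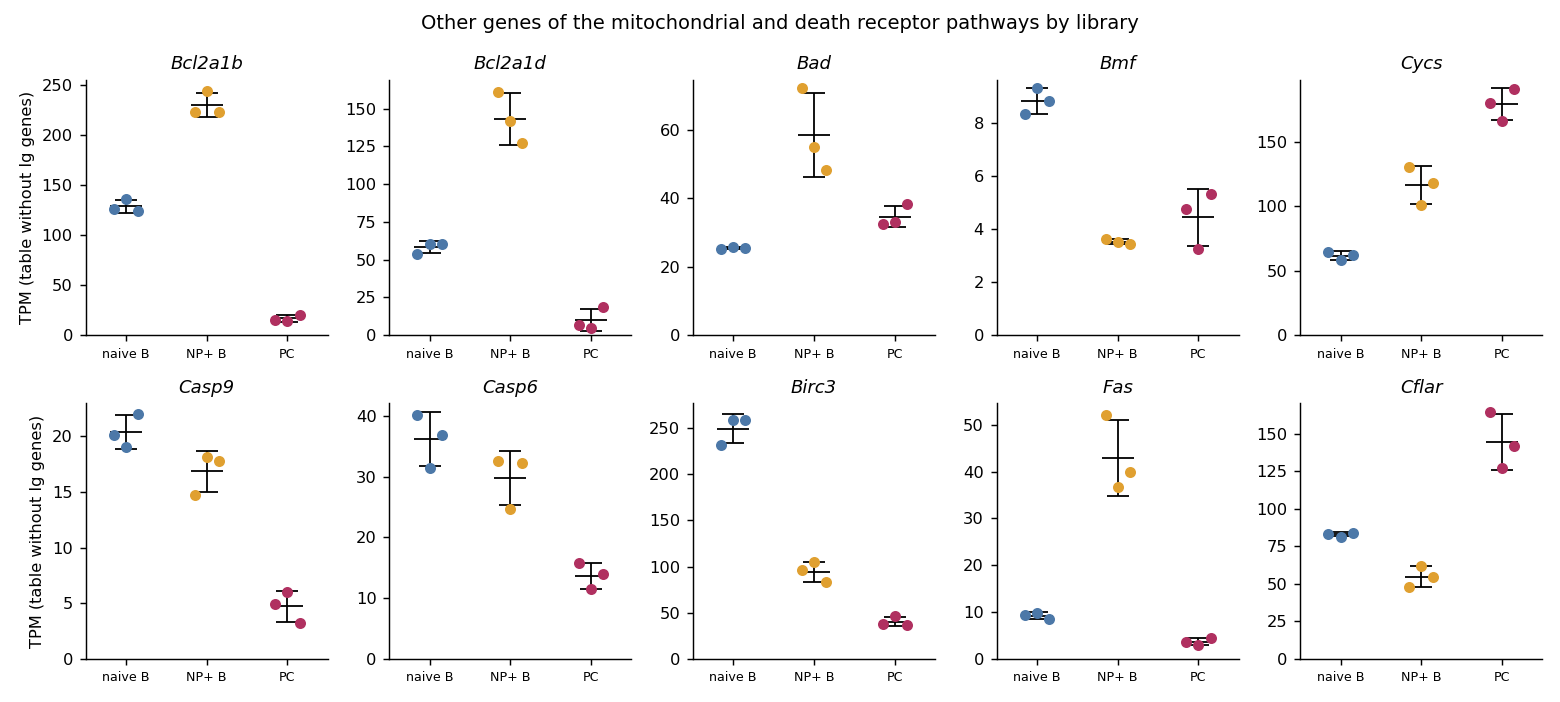
Level of 10 further genes of the death pathways in every library (points, TPM in the table without Ig genes, linear axes from 0 that differ between genes), with the mean (long line) and SD (short lines) of 3 libraries per group. Bcl2a1b, Bcl2a1d, Bad and Fas are highest in NP+ B cells, Cycs and Cflar in PCs, and Bmf, Casp9, Casp6 and Birc3 in naive B cells.

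Among 8 genes of the p53 and stress responses, none was called between NP+ and naive B cells, beside 18.5% of all genes. In PCs 1 was higher and 2 lower against naive B cells, and 2 were higher and 2 lower against NP+ B cells. The shares of all genes called there were 37.8% and 32.2%. Trp53, the gene of p53, fell in PCs to 40.1, 38.5 and 28.4 TPM from 100.3, 99.97 and 113.8 TPM in naive B cells (log2 change -1.56, SE 0.14, limma adjusted p = 4.42e-06). Foxo3, whose protein is known to activate Bcl2l11, was higher in PCs, at 10.7, 13.2 and 12.4 TPM against 4.86, 4.07 and 3.93 TPM in naive B cells (1.39, SE 0.29, limma adjusted p = 0.00162), but 0.29 with Ig genes kept. Foxo1, its relative, was lower in PCs, at 5.60, 4.22 and 4.71 TPM against 16.1, 16.5 and 16.1 TPM (-1.66, SE 0.33, limma adjusted p = 0.00137). Of 5 genes that act on the stability or the partners of MCL1, 4 were tested. Fbxw7, a ubiquitin ligase subunit, was called higher in PCs against naive B cells (1.09, SE 0.18, limma adjusted p = 0.000345), and with Ig genes kept its change was -0.04.

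The genes most like each guardian were found by the root mean square difference of log2(TPM + 0.5) over the 9 libraries, each gene centred on its mean, among 7249 genes with a mean of at least 10 TPM. Closest to Bcl2 were Twf2 (difference 0.168), Rbm43 (0.172) and Laptm5 (0.192), which went from 109.0, 47.3 and 1059 TPM in naive B cells to 12.3, 5.57 and 103.5 TPM in PCs. Closest to Bcl2l1 were Aldh7a1 (0.208), Uqcrq (0.227) and Fdps (0.236), which rose in mean level from naive to NP+ B cells to PCs, as Uqcrq did from 364.8 to 696.7 to 1516 TPM. Closest to Mcl1 were Gemin2 (0.104), Osgepl1 (0.109) and H3f3b (0.117), whose group means lay between 19.2 and 30.3 TPM for Gemin2. This likeness is a description over 9 libraries in 3 groups and carries no test.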

How the data were processed

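RNA was measured in 9 libraries (SMART-Seq v4 cDNA, Nextera XT), 3 per group, with groups taken from the labels. The deposited TPM values were made by the authors, who pseudoaligned reads with kallisto, and are given per gene symbol. The authors also deposited log2 values, which voom gave from those estimates. The submitters' processing notes name kallisto, limma and mm10. The annotation is not given in the sources used here, nor which of the 2 sequencers the study names read which library. The kit does not mark strand, so reads from genes that overlap on opposite strands (Bcl2 and D630008O14Rik, Bak1 and Ggnbp1, Bid with Bcl2l13 and Gm17812, Bik and Gm46495) cannot be told apart unless the transcripts differ in sequence. Further overlapping genes are Gm37053 and Mir3473f (Bcl2), Gm45808 (Bax) and Gm44260 (Bid).

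From these values, TPM of the table without Ig genes was passed to voom and fitted with limma (version 3.58.1, R 4.3.3), scaled to the column sum, with 3 group means, all 9 libraries and no block. Estimated read counts came from the log2 value shared by all genes at a TPM of 0, taken as 0.5 counts. No libraries held identical values. The fit was tested on simulated data. Gene positions are from GENCODE M21 (GRCm38). Intervals of fold changes reflect the spread between libraries, and the floor of 3 reads covers counting error only. The genes and lists were chosen with earlier results of these data known. Each member was named, and from each list up to 3 called genes with the largest absolute log2 change. Alternatives were median-of-ratios scaling, quantile normalization, Ig genes kept, the authors' log2 values and pseudocounts of 0.1 and 1 (these 3 fitted without the weights of voom), estimated counts, no filter, a mean TPM of at least 10, only the 2 groups compared, a replicate block and each library left out. Leaving out NP+ B cells replicate 2 with PCs replicate 3 was added after seeing the data, for their myeloid transcripts.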

Additional observations from a re-analysis of the deposited data

How the results depend on the processing

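The calls of Bcl2l11 and Bcl2 in both comparisons with PCs, of Bid in NP+ against naive B cells and of Bid in PCs against NP+ B cells held under every alternative run. The count of the 10 genes called between NP+ and naive B cells was 1, and 3 with median-of-ratios scaling, quantile normalization, the authors' log2 values or estimated counts, because Bcl2l1 and Bbc3 passed 2-fold. Leaving out single libraries gave 1 to 3 (2 without naive B cells replicate 1, 3 without NP+ B cells replicate 3). In PCs against naive B cells the count was 8 with Ig genes kept, where Mcl1, Bax, Pmaip1 and Bbc3 were also lower, and in PCs against NP+ B cells it was 7 in place of 6, with Mcl1 and Pmaip1 lower and Bcl2l1 no longer called.

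Genes called over the whole table were 8494 and 7775 in the comparisons of PCs with naive and NP+ B cells with Ig genes kept, and 1179, 2965 and 2640 (NP+ against naive, PCs against naive, PCs against NP+) when a mean TPM of at least 10 left fewer genes to test. Bak1, Pmaip1 and Bbc3 lay under that limit and have no value there. Some signs turned. With median-of-ratios scaling these were Bcl2 in NP+ against naive B cells (0.071), Mcl1 (0.21) and Bax (0.093) in PCs against naive B cells, and Bak1 in PCs against NP+ B cells (0.33). With quantile normalization they were Pmaip1 in PCs against naive B cells (0.066) and Bak1 in PCs against NP+ B cells (0.15). With Ig genes kept they were Bak1 (-0.24) and Fbxw7 (-0.040) in PCs against naive B cells, the latter called higher without them. For Bak1 in PCs against NP+ B cells the authors' log2 values gave 0.000800, estimated counts 0.0082, and leaving out 1 library gave -0.21 to 0.14 (0.11 without NP+ B cells replicate 2, 0.14 without PCs replicate 1). Bcl2 in NP+ against naive B cells was -0.091 to 0.030 with 1 library left out, the highest without NP+ B cells replicate 3. Pmaip1 in that comparison was -0.078 to 0.17, negative without naive B cells replicate 1 (-0.06) or NP+ B cells replicate 2 (-0.078), and -0.078 without both NP+ B cells replicate 2 and PCs replicate 3. The cause of these changes was not tested.

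Whether the replicate numbers mark the same mouse is not given, and the data did not settle it: of 9 same-numbered pairs none had a correlation of deviations over 0.1 (range -0.0749 to 0.0675). With the number as a replicate block, 2 of the 10 genes were called in NP+ against naive B cells (Bbc3 at 1.00 joined Bid), 4 in PCs against naive B cells and 6 in PCs against NP+ B cells. Depth limits Bik most, whose level rests on few reads.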
